A study of Bos taurus with 13 samples.

Results

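The genes examined here are those that make and load peptides for MHC class I, the surface molecule through which nearly every nucleated cell displays fragments of its own proteins to cytotoxic T cells. The set was chosen by gene name and comprised 10 genes: *B2M*, *TAP1*, *TAP2*, *TAPBP*, *NLRC5*, *PSMB8*, *PSMB9*, *PSMB10*, *PSME1* and *PSME2*. Of the 16095 genes named in the count tables, 9 belonged to the set. *PSMB10* had no entry of that name and was not analysed here. Whole blood had been drawn into RNA-stabilising tubes from dairy cows in milk, of the Italian Red Pied breed by the labels (Italian Simmental in the study's methods), that had been ranked on the cortisol concentration of their milk. The high group comprised 7 cows and the low group comprised 6 cows, and each cow gave 1 library. The cows were kept on 1 commercial farm, and no treatment and no age is given in the sources used here.

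Proteins in the cytosol are cut into peptides by the proteasome. Its standard catalytic subunits are encoded by *PSMB5*, *PSMB6* and *PSMB7*, and cells exposed to interferon replace them with the immunoproteasome subunits encoded by *PSMB8*, *PSMB9* and *PSMB10*. *PSME1* and *PSME2* encode the alpha and beta chains of PA28, an activator ring that docks on the proteasome. *TAP1* and *TAP2* encode the paired chains of the transporter that carries peptides into the endoplasmic reticulum, and *TAPBP* encodes tapasin, which holds an empty class I molecule beside that transporter until a peptide binds. *B2M* encodes beta-2-microglobulin, the invariant light chain of every class I molecule. *NLRC5* encodes the transactivator of class I promoters and of several genes in this set. Blood leukocytes carry the machinery at all times and raise most of it in response to interferon.

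The libraries held between 11045599 and 28124575 counts in named genes. All 9 genes passed the filter on low counts, as did 11033 genes in all, and the lowest count of any of the 9 in any cow was 2064 (*TAP2*), so counting error was small beside the differences between cows. Markers of each blood cell type were detected: the summed level of 9 neutrophil genes was 4876 to 9767 CPM (counts scaled to library size) in the high group and 7588 to 10342 CPM in the low group, and that of 11 T cell genes was 2854 to 4047 and 3225 to 4845 CPM. The library of cow 4 of the high group stood apart on the first principal component of all genes, which held 29.1% of the variance, with a score of 62.6 against -31.5 to 19.3 in the other cows. The share of haemoglobin counts was higher in the high group (0.0282 to 0.815%) than in the low group (0.0114 to 0.0552%), with a two-sided exact permutation p of 0.0175 on the log2 share. The summed level of 8 erythroid genes was 391 to 8016 CPM in the high group and 142 to 582 CPM in the low group (two-sided exact permutation p = 0.0262 on their score). These genes include the haemoglobin genes of that share, so both measures are not independent. The scores of 7 other blood cell types had exact permutation p of 0.226 to 0.738.

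Most of the set lay close together in the genome, with coordinates as given in the headers of the count tables (build UMD3.1). On chromosome 23, *TAP2* ran from 7079669 to 7109540 and *PSMB8* from 7113304 to 7116676. They were followed by *TAP1* from 7117863 to 7126822 and *PSMB9* from 7127079 to 7133608. *PSMB9* was on the plus strand and the other 3 were on the minus strand, so *TAP1* and *PSMB9* pointed away from each other across 257 bases. *TAPBP* lay farther along the same chromosome, from 7415849 to 7425523 on the minus strand. *PSME1* (20846749 to 20849410, minus strand) and *PSME2* (20838545 to 20841805, plus strand) were neighbours on chromosome 10, 4944 bases apart with *EMC9* between them. *B2M* was at the far end of chromosome 10, from 104139090 to 104145312 on the plus strand, and *NLRC5* was on chromosome 18, from 25126947 to 25184749 on the plus strand. No exon of these 9 genes overlapped an exon of another named gene.

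The levels of the 9 genes spanned a wide range. Scaled by library size and by exon length (RPKM, mean ± SD over n = 13 cows), *B2M* was the highest at 8278 ± 465 RPKM. *PSMB8* came next at 1259 ± 277 RPKM. *PSME1* had 502 ± 101 RPKM, *TAPBP* 446 ± 77.1 RPKM, *PSMB9* 353 ± 85.0 RPKM and *PSME2* 302 ± 67.3 RPKM. The transporter chains and the transactivator were the lowest, with 209 ± 34.5 RPKM for *TAP1*, 110 ± 23.1 RPKM for *NLRC5* and 74.5 ± 15.2 RPKM for *TAP2*. The level of *TAP1* per length was thus above that of its partner *TAP2* in each cow.

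Neighbours in this order were compared within cows by a two-sided exact sign-flip permutation test, with Benjamini-Hochberg adjustment over the 8 comparisons. The closest neighbours were *PSME1* and *TAPBP*, which differed by 0.17 ± 0.22 on the log2 scale (SD, n = 13), with *PSME1* higher in 9 of 13 cows (exact p = 0.0193, adjusted 0.0193). *TAPBP* exceeded *PSMB9* in 12 of 13 cows (exact p = 9.8e-04). In the other 6 comparisons the order held in all 13 cows, at the smallest p that 13 cows allow (exact p = 2.4e-04).

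**Figure D1:**
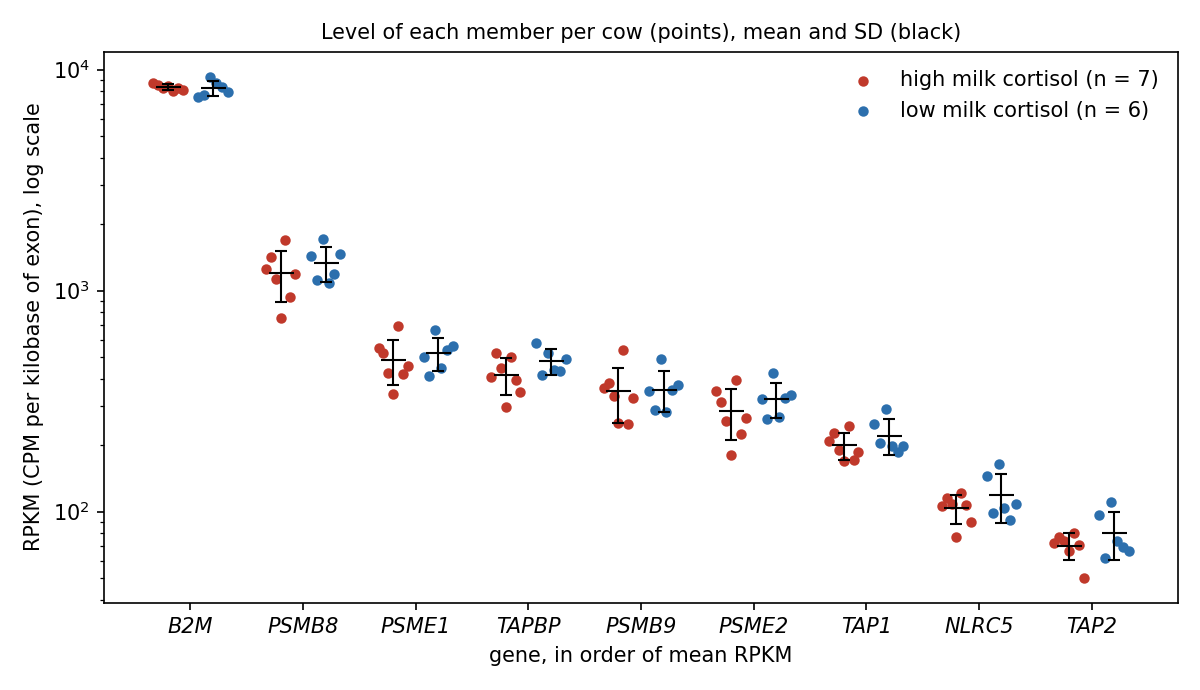
Level of each of the 9 genes in each cow (RPKM on a log scale, normalised by the trimmed mean of M-values). The high group and the low group are drawn as separate points, with the mean and SD of each group in black. The points of *B2M* lie within a 1.23-fold range, the points of *PSME2* within a 2.35-fold range, and both groups overlap for each gene.

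The spread between cows separated *B2M* from the rest of the set. *B2M*, the light chain gene, had 7285 CPM in the lowest, 7460 CPM in the median and 7909 CPM in the highest cow of the high group. In the low group it had 6842, 7379 and 8442 CPM. The highest cow of all had 1.23 times the level of the lowest, and the SD of its log2 level was 0.080. Only 21 of the 11033 genes tested had a smaller SD. Among the 123 genes with a mean of at least 1000 CPM, whose median SD was 0.254, *B2M* was at rank 2 from the smallest.

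Each of the other 8 genes varied more. The SD of the log2 level was 0.224 for *TAP1*, 0.261 for *TAPBP*, 0.280 for *TAP2*, 0.286 for *NLRC5* and 0.287 for *PSME1*. *PSMB9* (0.329), *PSMB8* (0.332) and *PSME2* (0.335) exceeded the median SD of all genes tested, 0.305. From lowest to highest cow these levels ranged 1.71-fold for *TAP1* and 2.35-fold for *PSME2*. The lowest value was in cow 4 of the high group for 6 of the 9 genes, and the highest value was in cow 10 of the low group for 6 of the 9.

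The comparison of the high with the low group asked whether class I processing in blood differed with milk cortisol. No gene of the set was called over-expressed or under-expressed. The edgeR quasi-likelihood test called 0 of the 9 at an adjusted p under 0.05, against 0% of all 11033 genes, and each of the 9 had an adjusted p of 0.998. At an unadjusted p under 0.05 there were 0 of the 9, against 2.09% of all genes tested (231 genes, 1.16% lower and 0.934% higher in the high group). DESeq2 and limma-voom also gave 0 of the 9 at an unadjusted p under 0.05. The range of the high group overlapped that of the low group for all 9 genes, and over all genes 0.0453% had ranges that did not overlap. In whole blood, fewer cells of a type and less RNA per cell cannot be told apart, so each level below is that of the mixture.

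Among the transporter and loading genes, *TAP1* had 505, 565 and 724 CPM in the lowest, median and highest cow of the high group, against 554, 598 and 862 CPM in cows of low cortisol. High against low, its log2 fold change was -0.15 ± 0.13 (SE; edgeR, unadjusted p = 0.253). *TAP2* had 134, 192 and 214 CPM in the high group and 165, 191 and 295 CPM in the low group, with a log2 fold change of -0.19 ± 0.14 (edgeR, unadjusted p = 0.207). The medians of *TAP2* differed by little, and its highest value of all was in the low group. *TAPBP* had 700, 954 and 1222 CPM in the high group and 977, 1087 and 1360 CPM in the low group. The estimate was a log2 fold change of -0.20 ± 0.13, with the smallest unadjusted p of the set (edgeR, unadjusted p = 0.148). Of the 7 cows of the high group, 5 were below the median of the low group.

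*NLRC5*, the transactivator, had 465, 653 and 738 CPM in the lowest, median and highest cow of the high group against 555, 643 and 998 CPM in cows of low cortisol. Its log2 fold change was -0.19 ± 0.15 (SE; edgeR, unadjusted p = 0.210). The median was slightly above that of the low group while the mean was below it, and the highest value of all was in cow 10 of the low group. The light chain gene *B2M* had a log2 fold change of 0.01 ± 0.09 (edgeR, unadjusted p = 0.904), with an interval of -0.17 to 0.19 (2 SE each way).

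Of the proteasome genes, *PSMB8* had 808, 1291 and 1825 CPM in the high group and 1171, 1421 and 1841 CPM in the low group, with a log2 fold change of -0.16 ± 0.17 (edgeR, unadjusted p = 0.370). *PSMB9* had 186, 248 and 403 CPM in the high group and 211, 262 and 366 CPM in the low group, with a log2 fold change of -0.03 ± 0.18 (edgeR, unadjusted p = 0.873). The ranges of the low group lay almost wholly inside those of the high group for both catalytic subunits. *PSME1*, the alpha chain of PA28, had 343, 455 and 693 CPM in the high group and 413, 520 and 663 CPM in the low group (log2 fold change -0.10 ± 0.15). *PSME2*, the beta chain, had 163, 240 and 355 CPM in the high group and 238, 293 and 382 CPM in the low group (log2 fold change -0.19 ± 0.17). The interval of 2 SE was -0.52 to 0.15 for *PSME2*, which reached farthest towards lower values in the set. Differences within that interval remained compatible with these data.

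**Figure D2:**
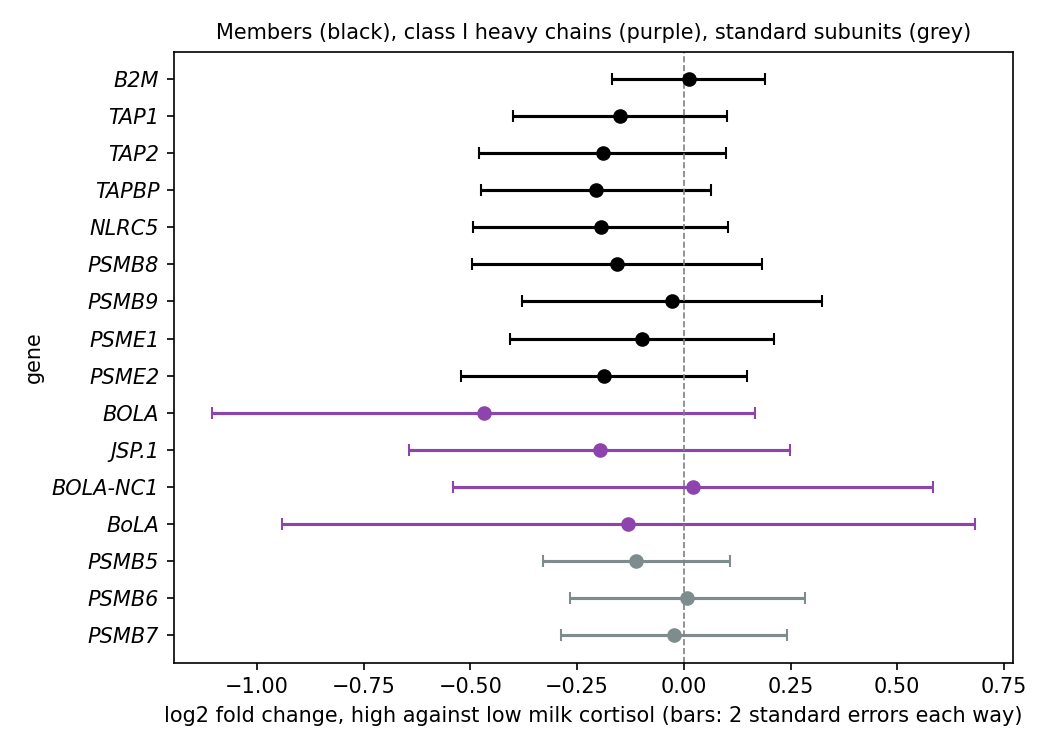
Log2 fold change of high against low for each gene of the set, with bars of 2 SE each way (edgeR). Every bar crosses 0, and 8 of the 9 points lie below 0.

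Of the estimates, 8 of the 9 log2 fold changes were below 0, against 46.7% of those of all genes tested, and their median was -0.16 against 0.01 over all genes. These genes were correlated with each other and are not independent, so the count has no test. Without cow 4 of the high group the median was -0.10 and 7 of 9 were below 0, and without cow 10 of the low group the median was -0.07. An interferon score was computed in the same cows: 20 of 22 listed antiviral interferon-induced genes, none of them in this set, were in the tables, and all 20 had lower estimates in the high group (median log2 fold change -0.67, 4 at an unadjusted p under 0.05, none at an adjusted p). The score of each cow, the mean of these genes on a centred log2 scale, lay between -0.88 and 1.21 (high group) or -0.41 and 1.59 (low group; two-sided exact permutation p = 0.103). With the haemoglobin share as a covariate the median of the 9 genes was -0.08, and with the interferon score it was -0.01 with 6 of 9 below 0.

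Immunoproteasome subunits were set against the standard subunits that they replace, per length. The standard subunit genes had 38.0 ± 4.67 RPKM (*PSMB5*), 142 ± 24.0 RPKM (*PSMB6*) and 66.3 ± 10.4 RPKM (*PSMB7*; SD, n = 13). The ratio of *PSMB8* to *PSMB5* was 24.7 in the lowest, 31.9 in the median and 43.3 in the highest cow. The ratio of *PSMB9* to *PSMB6* was 1.83, 2.33 and 3.43. For both pairs, transcripts of the immune subunit thus exceeded those of the standard subunit in every cow, by far more for the first pair than for the second. *PSMB10* had no entry, so its ratio to *PSMB7* was not computed.

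Neither ratio differed detectably between the groups. The log2 ratio of *PSMB8* to *PSMB5* was 4.99 ± 0.20 in the high group and 5.05 ± 0.24 in the low group (two-sided exact permutation p = 0.635). That of *PSMB9* to *PSMB6* was 1.26 ± 0.22 and 1.32 ± 0.34 (two-sided exact permutation p = 0.707). The balance of both PA28 chains was the tightest of the ratios: *PSME1* to *PSME2* was 1.55 in the lowest, 1.66 in the median and 1.90 in the highest cow. On the log2 scale it was 0.79 ± 0.10 in the high group (SD, n = 7) and 0.69 ± 0.05 in the low group (SD, n = 6), with a two-sided exact permutation p of 0.0559 and 0.224 after adjustment over 4 ratios. With each cow left out in turn the unadjusted exact permutation p lay between 0.0195 (without cow 1 of the high group) and 0.110 (without cow 8 of the low group), and was under 0.05 without cow 1 or cow 3 (0.0411) of the high group. The ratio of *TAP1* to *TAP2* was between 2.43 and 3.69, and its log2 means differed by 0.03 between the groups (two-sided exact permutation p = 0.786).

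The levels of these genes moved together from cow to cow. Among the 36 pairs, 35 had a positive Pearson r of the log2 level over the 13 cows, with a median of 0.73. With each group centred on its own mean the median was 0.71. By permutation with 100000 resamples and adjustment over the 36 pairs, 24 pairs passed 0.05 by Pearson's r and 20 by Spearman's rho. The 20 were all among the 24.

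**Figure D3:**
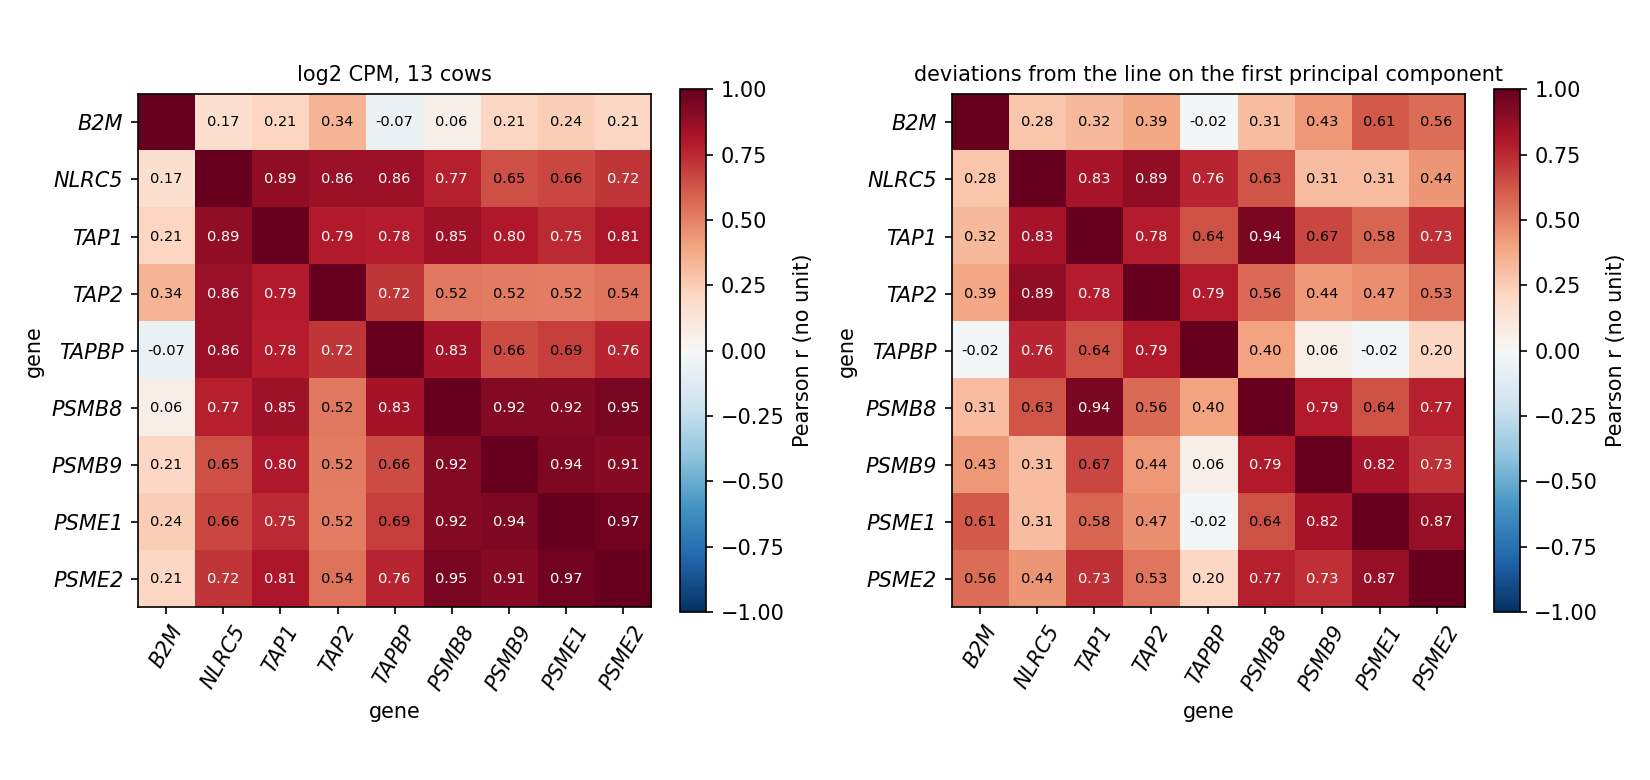
Pearson r of log2 level between each pair of the 9 genes over 13 cows (left), from -0.07 to 0.97. The right panel shows r after the line on the first principal component was taken out, from -0.02 to 0.94. On the left the block of *PSMB8*, *PSMB9*, *PSME1* and *PSME2* holds the highest values, 0.91 to 0.97, and the row of *B2M* holds the lowest, -0.07 to 0.34. On the right that block has 0.64 to 0.87, and the highest value is that of *TAP1* with *PSMB8*, 0.94.

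The proteasome genes were the most tightly linked. All 6 pairs among *PSMB8*, *PSMB9*, *PSME1* and *PSME2* passed by both measures, with r of 0.91 to 0.97 and rho of 0.88 to 0.96. The 2 cows farthest from the median of the first gene of a pair, in the order in which the set is listed, were also left out. Then r was 0.85 to 0.96, and without cow 4 of the high group it was 0.89 to 0.96. *PSME1* and *PSME2*, which encode the 2 chains of 1 complex, had r = 0.97 and rho = 0.96. Each was the closest of all 11032 other genes to the other. *PSMB9* had *PSME1* at rank 2 (r = 0.94), although they are on different chromosomes. For *PSMB8*, *PSME2* was at rank 4 (r = 0.95).

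A second group, set by the roles of its genes, comprised the transactivator and the transport and loading genes. All 6 pairs among *NLRC5*, *TAP1*, *TAP2* and *TAPBP* passed by both measures, with r of 0.72 to 0.89. Without cow 4 of the high group all 6 still passed, with r of 0.76 to 0.93. With the 2 cows farthest on the first gene of each pair left out, r was 0.46 to 0.81 and 4 of the 6 passed. Relations with *NLRC5* are given below without the 2 cows farthest on *NLRC5*, so the values of the same pairs differ. Between the groups of genes the pairs were looser in the median (r = 0.70, against 0.93 within the proteasome genes and 0.83 within this group). Over these 16 pairs r was 0.52 to 0.85, of which 12 passed by Pearson's r and 8 by Spearman's rho, and 6 without cow 4. *TAP1* was linked to both groups: r was 0.75 to 0.85 with the 4 proteasome genes, 0.89 with *NLRC5*, 0.79 with *TAP2* and 0.78 with *TAPBP*. Without the 2 cows farthest on *TAP1*, its 4 proteasome pairs still passed (r of 0.77 to 0.85), whereas *TAP1* with *TAP2* did not (r = 0.46).

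*NLRC5* was examined against each of the other 8 genes, with adjustment over the 8. With *TAP1* r was 0.89 and rho 0.79 (permutation p = 7e-05 and 0.00202, adjusted 5.6e-04 and 0.00539), and r was 0.77 without cow 10 of the low group and cow 4 of the high group. With *TAP2* r was 0.86 and rho 0.85 (permutation p = 6.6e-04 and 3.3e-04, adjusted 0.00176 and 0.00132), and r was 0.88 without those cows. With *TAPBP* r was 0.86 and rho 0.89 (permutation p = 3e-04 and 1.4e-04, adjusted 0.0012 and 0.00112), and r was 0.84 without those cows. These 3 relations held without the pair of cows. By r with *NLRC5*, *TAP1* was at rank 9 of 11032 genes, *TAP2* at rank 25, *TAPBP* at rank 28 and *B2M* at rank 4167.

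The proteasome genes followed *NLRC5* less firmly. *PSMB8* had r = 0.77 and rho = 0.73 (permutation p = 0.00271 and 0.00642, adjusted 0.00542 and 0.0128), and *PSME2*, *PSME1* and *PSMB9* had r of 0.72, 0.66 and 0.65 (adjusted permutation p of 0.0100, 0.0177 and 0.0201). By Spearman's rho *PSMB9* passed (rho = 0.65, adjusted permutation p = 0.0312). *PSME1* and *PSME2* did not (rho of 0.57 and 0.55, adjusted permutation p = 0.0598 for each). Without cow 10 of the low group and cow 4 of the high group none of these 4 passed: r was 0.52 for *PSMB8* and 0.31 to 0.35 for the others. Whether they passed thus depended on those cows. They are the farthest on *NLRC5*, so leaving them out also narrows its range. Without cow 4 alone *PSMB8* passed (r = 0.67, adjusted permutation p = 0.0325) and the other 3 did not (r of 0.53 to 0.58). *B2M* had r = 0.17 and rho = -0.04 with *NLRC5* (permutation p = 0.587 and 0.907).

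**Figure D4:**
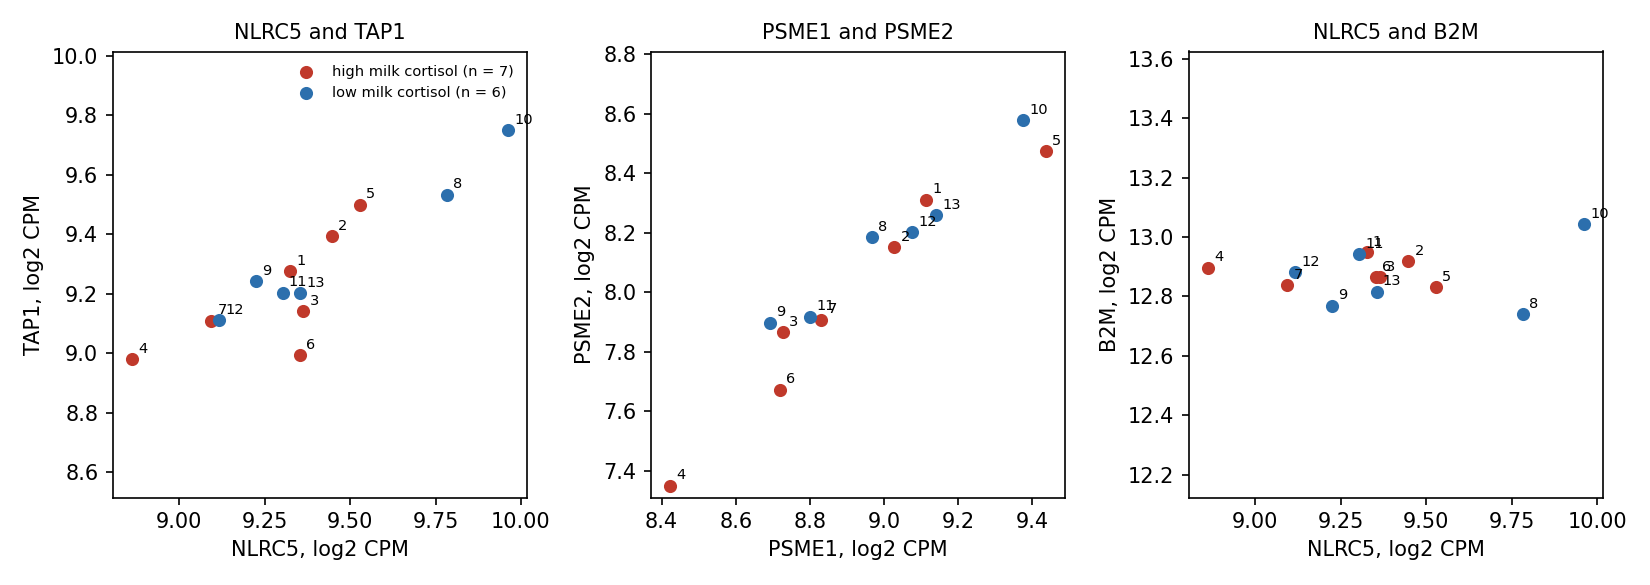
Log2 level in each cow of *TAP1* against *NLRC5*, of *PSME2* against *PSME1* and of *B2M* against *NLRC5*. In each panel the gene named second is on the horizontal axis. The vertical axes have equal span, and each point is labelled by its cow number. *TAP1* (r = 0.89) rises with *NLRC5* across the cows, whereas *B2M* (r = 0.17) stays flat.

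Several measures of the libraries moved with these levels, and they are given as descriptions because they were computed from the same counts. With the first principal component, r was -0.92 for *PSMB8*, -0.87 for *PSME1* and *PSME2*, -0.80 for *TAPBP*, -0.79 for *PSMB9*, -0.63 for *NLRC5*, -0.60 for *TAP1*, -0.34 for *TAP2* and 0.07 for *B2M*. With the normalisation factor of each library (0.921 to 1.09), r was -0.94 for *TAPBP* and below -0.5 for all 8 genes other than *B2M*. After the line on the first principal component was taken out, r was 0.64 to 0.87 within the proteasome genes, 0.64 to 0.89 among *NLRC5*, *TAP1*, *TAP2* and *TAPBP*, and -0.02 to 0.94 between these groups. For *B2M* with the other 8 genes it was -0.02 to 0.61, with a median of 0.35 against 0.21 before. The part of the normalisation factor was not tested.

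The interferon score was correlated with 8 of the 9 genes, with r of 0.60 to 0.72 and adjusted permutation p of 0.0321 to 0.0353, and *B2M* had r = -0.24 (permutation p = 0.428). Without cow 8 of the low group and cow 5 of the high group, the farthest on the score, none passed. Over the remaining cows r was 0.44 to 0.68 for the 8 genes. For *PSME1* it was 0.64 with all cows and 0.68 without these cows, and for *PSME2* it was 0.63 in both. For the others it was lower without these cows, as for *TAP1* (0.63 and 0.44). Without cow 4 of the high group r of the 8 genes was 0.55 to 0.73, with adjusted permutation p of 0.0685 to 0.0771. After the line on the interferon score was taken out, r was still 0.85 to 0.95 within the proteasome genes and 0.48 to 0.82 among *NLRC5*, *TAP1*, *TAP2* and *TAPBP*. For *B2M* with the other 8 genes it was 0.16 to 0.66, with a median of 0.46 against 0.21 before. Scores of 8 blood cell types gave 72 relations with the 9 genes, of which none passed by either measure (r from -0.57 to 0.53).

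The genes outside the set with the closest pattern differed between members. *TAP1* was closest to *GADD45B* (r = 0.95 over 13 cows), *TAPBP* to *UBAP1* (r = 0.97) and *NLRC5* to *GRIPAP1* (r = 0.93). *PSMB8* was closest to *OGFR* (r = 0.96), *PSMB9* to *PEX16* (r = 0.94), *PSME2* to *CDC123* (r = 0.96), and *PSME1* to *PSMC3*, an ATPase subunit of the proteasome cap (r = 0.95). *B2M* was closest to *SEC11A*, a signal peptidase subunit, at a lower r of 0.82. Closest to the mean of the set were *GADD45B* (r = 0.97), *WARS* (0.94), *RTFDC1* (0.94), *TRIM21* (0.94) and *OGFR* (0.93). Each was picked as the highest r among genes outside the set, so these values carry no test.

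The rest of the pathway was compared in the same way. Of 52 listed genes, 49 were in the tables: loading chaperones and trimming peptidases, other proteasome subunits, caps and assembly factors, class I heavy chains, and transcription factors and interferon receptor genes upstream of class I. None passed at an adjusted p, and none passed at an unadjusted p under 0.05 in either direction. Their log2 fold changes were above 0 for 24 and below 0 for 25, with a median of -0.01. By list, estimates were above 0 for 4 of 7 loading and trimming genes, 1 of 3 standard catalytic subunits, 4 of 9 other core subunits, 4 of 8 assembly factors and caps, 10 of 18 transcription and receptor genes and 1 of 4 heavy chains.

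Of these 49 genes, 6 were correlated with *NLRC5* across cows after adjustment over the 49 by Pearson's r, each with a positive r. Among them were *IRF1* and *IRF9*, transcription factors of the interferon response, *IFNGR2*, a chain of the interferon gamma receptor, *TAPBPL*, a homologue of tapasin, and *PSMF1*, a proteasome inhibitor. They are named because they passed. By Spearman's rho 6 genes passed: *IRF1*, *IRF9*, *TAPBPL* and *PSMF1* again, *RFXANK*, a subunit of the RFX complex at MHC promoters (rho = 0.77, adjusted permutation p = 0.0277), and the chaperone calnexin gene *CANX*, with a negative rho (-0.76, adjusted permutation p = 0.0277). *IRF1* had r = 0.86 and rho = 0.77 (adjusted permutation p = 0.00686 and 0.0277), with r = 0.81 without cow 10 of the low group and cow 4 of the high group and r = 0.90 without cow 4. *IRF9* had r = 0.85 and rho = 0.86 (adjusted permutation p = 0.00686 and 0.0196), with r = 0.80 without those cows. *TAPBPL*, *PSMF1* and *IFNGR2* had r of 0.81, 0.80 and 0.82, and none of these 3 passed without the pair of cows (r of 0.66, 0.71 and 0.57), whereas all 3 passed without cow 4 alone (r of 0.82, 0.73 and 0.74). Other genes passed by Pearson's r without that pair of cows and not with all cows. *RFXAP*, another RFX subunit, then had r = -0.82 (adjusted permutation p = 0.0125, r = -0.62 with all cows), *POMP*, a proteasome assembly factor, r = -0.77 (adjusted permutation p = 0.0416, r = -0.57 with all cows) and *IRF2* r = 0.89 (adjusted permutation p = 0.0125, r = 0.63 with all cows).

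By counts, the heavy chains, which pair with *B2M* at the cell surface, ranged more widely than it did. On chromosome 23, 4 class I heavy chain genes were examined, *BOLA*, *JSP.1*, *BOLA-NC1* and *BoLA*. These genes are highly polymorphic near-copies of each other, and how reads were divided between them is uncertain. Whether reads of some alleles went uncounted was not tested. *BOLA* ranged 7.13-fold between cows, *BoLA* 7.29-fold, *BOLA-NC1* 5.43-fold and *JSP.1* 3.51-fold, where *B2M* ranged 1.23-fold. None passed between the groups: for *BOLA*, the largest of the 4 estimates, the log2 fold change was -0.47 ± 0.32 (SE; edgeR, unadjusted p = 0.160, adjusted 0.998).

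Summed over the 4 genes, a measure added after the single values were seen, the heavy chains had 7496 CPM in the lowest, 13006 CPM in the median and 18013 CPM in the highest cow, a 2.40-fold range. The lowest was cow 4 of the high group, whose library stood apart, and the next lowest had 9485 CPM (cow 3 of the high group). With the first principal component the log2 sum had r = -0.82. The high group had 11650 ± 2612 CPM (SD, n = 7) and the low group 14335 ± 2803 CPM (SD, n = 6), a log2 difference of -0.31 (two-sided exact permutation p = 0.110). The groups overlapped. *BOLA* took from 20.4% of the sum in cow 4 of the high group to 66.2% in cow 13 of the low group.

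**Figure D5:**
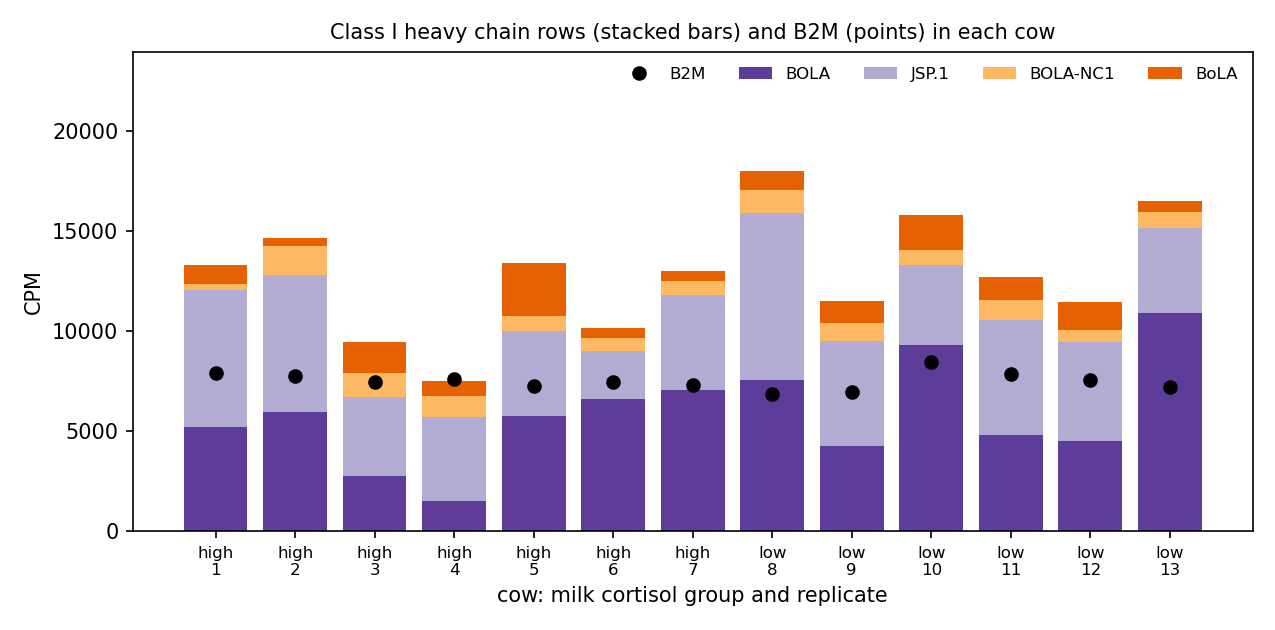
Summed level of the 4 class I heavy chain genes in each cow (stacked bars, CPM, from 0), with *B2M* drawn as points on the same axis. The bars run from 7496 to 18013 CPM and differ in make-up from cow to cow, while the points of *B2M* stay between 6842 and 8442 CPM.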

How the data were processed

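Whole-blood RNA of 13 cows was sequenced without globin depletion. The deposited files hold raw counts per gene, made by the authors with featureCounts. The file headers name featureCounts 1.4.6-p3 and Ensembl release 88 (UMD3.1), whereas the submitters' processing notes name STAR 2.7.3, Subread 1.6.5 and ARS-UCD1.2. The headers show no strand option. Counts without a gene name, 13.9 to 16.7% per library, were left out. No 2 libraries held identical counts.

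Groups followed the labels. The file headers name an alignment folder with "goat" in its name and animal numbers other than those of the deposited files, so the match of library to cow rests on the deposit alone. Counts were tested with edgeR 4.0.16 in R 4.3.3 (quasi-likelihood, trimmed mean of M-values, filterByExpr with a minimum count of 10 and a minimum total of 15), with Benjamini-Hochberg adjustment over 11033 genes. Log2 CPM used a prior count of 2. Single values were tested over all 1716 splits of the cows, for which the smallest two-sided p is 5.8e-04. DESeq2 1.42.0 and limma 3.58.1 (voom), other filters, size factors and covariates, and leaving out each cow were alternatives. The model was tested on simulated data.

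The genes and lists were chosen with earlier results of these data known. Genes named outside the set were the standard subunits, the heavy chains, the closest gene to a member, the 5 closest to the mean of the set, and the pathway genes correlated with *NLRC5*, which were added after their values were seen. *PSMB10* was not analysed here, and the values of 1 gene outside the set are not reported here.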

Additional observations from a re-analysis of the deposited data

Results flagged for a closer look

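A sample far from the others of its group was looked for in 14 measures, at both ends of both groups, which made 56 comparisons. Chance alone gives about 1 such sample in 20 groups, and 2 were found. *TAP2* in cow 7 of the high group was the first, with 134 CPM against 177 CPM in the next lowest cow and 214 CPM in the highest. On the log2 scale, on which *TAP2* was examined, the gap was 0.593 of the group's range. The interferon score of cow 5 of the high group was the second, with 1.21 against -0.19 in the next highest cow and -0.88 in the lowest, a gap of 0.666 of the range.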

How the results depend on the processing

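No paired analysis was possible because the groups share no replicate numbers. No gene of the set reached an unadjusted p under 0.05 in any of the alternatives run. DESeq2 called 1 gene in all, outside the set, and edgeR and limma-voom called 0. Genes at an unadjusted p under 0.05 numbered 231, 414 without a filter, 120 with the haemoglobin share as covariate and 348 with DESeq2, and 191 to 373 when cows were left out. With the interferon score as covariate the log2 fold change turned for *B2M* (-0.0036), *PSMB8* (0.025), *PSMB9* (0.17) and *PSME1* (0.075). The cause was not tested.

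Leaving out each cow gave log2 fold changes of -0.010 to 0.052 for *B2M* and -0.17 to 0.086 for *PSMB9*. The estimates of *NLRC5* (-0.08), *TAP1* (-0.05), *TAP2* (-0.07), *PSME1* (-0.01) and *PSME2* (-0.09) were nearest 0 without cow 10 of the low group, and that of *PSMB8* (-0.07) without cow 4 of the high group. *PSMB8* (-0.26), *PSME1* (-0.21) and *PSME2* (-0.29) were lowest without cow 5 of the high group. *TAPBP* stayed between -0.26 and -0.14. The group difference in log2 ratio was then -0.10 to 0.016 for *PSMB8* to *PSMB5*, -0.15 to 0.031 for *PSMB9* to *PSMB6*, 0.076 to 0.12 for *PSME1* to *PSME2* and -0.034 to 0.075 for *TAP1* to *TAP2*.

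Of 8 relations with *NLRC5*, 7 passed with all cows by Pearson's r and 5 by Spearman's rho. By Pearson's r 3 passed without the 2 farthest cows and 4 without cow 4 of the high group. Their median r of 0.75 became 0.44 and 0.63, and 0.54 and 0.59 after the lines on the first principal component and on the interferon score. Of 9 relations with the interferon score, 8 passed with all cows, 0 without the 2 farthest cows and 0 without cow 4, and the median r of 0.63 became 0.30 after the line on the first principal component. Of 36 pairs, 24 passed with all cows and 15 without the 2 farthest, and the median r of 0.73 became 0.63 without cow 4, 0.57 off the first principal component and 0.58 off the interferon score. Leaving out cow 4 and taking out the lines were chosen after seeing the data. With 7 and 6 cows, the lower end of the interval of 2 SE lay between -0.52 and -0.38 on the log2 scale for the 8 genes other than *B2M*.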
